A study of Mus musculus with 12 samples.

Results

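The genes described here are 43 Polycomb and trithorax chromatin regulators. They were taken by symbol from the count tables of a study of mouse blood stem and progenitor cells, which hold 24538 gene symbols, and all 43 were found in both tables and passed the filter on low counts in every fit. The genes were taken by name, from a list drawn up with earlier results of these data known. It holds 6 genes of the core of Polycomb repressive complex 2 (PRC2), 5 PRC2 accessory genes, 8 ligase and Pcgf genes and 8 Cbx, Phc and Kdm2b genes of Polycomb repressive complex 1 (PRC1), 6 histone H3 lysine 4 (H3K4) methyltransferases of the KMT2 and SETD1 family, 5 genes for their shared subunits and the partner menin, 4 histone demethylases, and Asxl2. RNA was sequenced from sorted cells of Tet2 KO, Tet2 Mut and wild-type (WT) mice of a mixed 129/C57/B6 background, aged 10 weeks. For each genotype the marrow of 2 mice was pooled, LSK cells and cells labelled MPP were sorted from the pool, and 2 technical libraries were made from each sort, which gives 6 groups and 12 libraries. The groups are, in the names of the sample descriptions, LSK KO, LSK Mut, LSK WT, MPP KO, MPP Mut and MPP WT. The titles and count columns of the MPP libraries read Lin in place of MPP, and the labels do not explain this second name. They give neither the altered residues of Mut nor the deleted part of KO nor the gates of MPP. LSK stands for the lineage-negative, Sca-1-positive, Kit-positive marrow fraction that holds the blood stem cells, and MPP for multipotent progenitor. The title of the series places its question in what Tet2, an oxidase of methylated cytosine, does apart from catalysis. Since each group comes from 1 pool, the errors and p-values given here reflect library preparation and sequencing of that pool, and differences between mice do not enter them.

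Polycomb and trithorax proteins maintain the off and on states of developmental genes. PRC2 methylates histone H3 on lysine 27 (H3K27) through Ezh2 or Ezh1, and PRC1 attaches ubiquitin to histone H2A and compacts chromatin, with Cbx proteins that bind methylated H3K27. The COMPASS complexes of the trithorax group methylate H3K4 through a KMT2 or SETD1 enzyme held by the subunits Wdr5, Rbbp5, Ash2l and Dpy30, while Kdm5a and Kdm5b remove H3K4 methylation and Kdm6a and Kdm6b remove H3K27 methylation. In blood, Bmi1 and Kmt2a are known for their need in stem cell self-renewal, Kmt2a acts on the Hoxa genes and Meis1, and PRC2, Kmt2a and Asxl genes are recurrently altered in leukaemia.

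Gene counts per library ran from 9181027 to 23532847. Spike-in RNAs took 0.0822% to 0.229% of all counts in the LSK libraries and 3.16% to 5.15% in the MPP libraries. Each population also has its own count table. The part of these differences in the results of LSK against MPP was not tested. The LSK WT pair stood apart from the rest, with 12614 genes detected at most where every other library had at least 13333, and with a correlation of log2 levels of 0.85 over genes where the other 5 pairs reached 0.924 or more. The targeted gene Tet2 was at 29.2 and 31.7 CPM (counts scaled to library size) in the libraries labelled LSK KO and at 43.5 and 44.4 CPM in LSK Mut, against 87.3 and 62.7 CPM in LSK WT. In the libraries labelled MPP KO it was at 34.9 and 34.9 CPM, against 39.6 and 29.4 CPM in MPP WT, so the level of Tet2 does not set MPP KO apart. Counts summed over a gene do not show whether an exon is missing, and the values given for MPP KO rest on the label. Of the cell markers, Ly6a, which encodes Sca-1, ranged from 58.4 to 163 CPM in the LSK libraries and from 10.4 to 20.6 CPM in the MPP libraries, and the progenitor receptor Flt3 from 718 to 1143 CPM in LSK and from 79.2 to 133 CPM in MPP. Mpo, the myeloperoxidase of granulocyte precursors, ranged from 1522 to 4662 CPM in LSK and from 30182 to 38129 CPM in MPP, so the population labelled MPP had low levels of these stem and multipotent cell markers. The summed level of 6 mast cell and basophil markers was 304 to 550 CPM in LSK and 5245 to 12656 CPM in MPP. Of these 6, Prss34 was the largest in MPP (0 to 17.5 CPM in LSK, 2954.5 to 7460.9 CPM in MPP). Gata2 overlapped, at 200 to 407 CPM in LSK and 239 to 381 CPM in MPP. The summed level of 7 megakaryocyte-erythroid markers was 534 to 894 CPM in LSK and 2234 to 3304 CPM in MPP. Of these 7, Car1 was the largest in MPP (98.7 to 227 CPM in LSK, 1397 to 2218 CPM in MPP). Gata1, Klf1, Epor and Tfrc were also higher in every MPP library. Pf4 ranged from 40.8 to 164 CPM in LSK and from 25.6 to 53 CPM in MPP, and Itga2b overlapped, at 160 to 287 CPM and 172 to 309 CPM. In bulk libraries such as these, fewer cells of a type and less RNA per cell cannot be told apart.

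The 43 genes covered a wide range of levels. Divided by exonic length, which makes genes comparable, the mean over the 12 libraries was highest for the histone-binding protein Rbbp7 (146 CPM per kb) and for the small COMPASS subunit Dpy30 (142 CPM per kb). Wdr5, the scaffold that contacts the KMT2 enzymes, followed at 45.9 CPM per kb, Rbbp4, the paralog of Rbbp7, at 41.7 CPM per kb, and Mtf2, a PRC2 accessory factor that binds DNA rich in CG, at 34.1 CPM per kb. Menin (Men1) stood at 27.8 CPM per kb, Ezh2 at 24.9 CPM per kb, Eed, the PRC2 subunit that reads methylated H3K27, at 20.8 CPM per kb, and Rnf2, the main ubiquitin ligase of PRC1, at 19.3 CPM per kb. The 6 KMT2 and SETD1 enzymes lay far lower, between 1.72 CPM per kb for Setd1b and 7.77 CPM per kb for Kmt2a. The lowest levels were those of Pcgf2 (1.33 CPM per kb), a paralog of Bmi1, of the Polyhomeotic protein gene Phc3 (1.47 CPM per kb) and of Pcgf3 (1.7 CPM per kb). The 4 highest levels thus belonged to WD-repeat histone binders and to Dpy30.

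Summed over the 43 genes, the level was 3887 and 3933 CPM in LSK KO, 3964 and 3705 CPM in LSK Mut and 4072 and 4230 CPM in LSK WT. In MPP the sum was 3228 and 3190 CPM in KO, 3493 and 3370 CPM in Mut and 3349 and 3295 CPM in WT. Every LSK library was above every MPP library in this sum, which gives the abundant genes most weight.

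**Figure D1:**
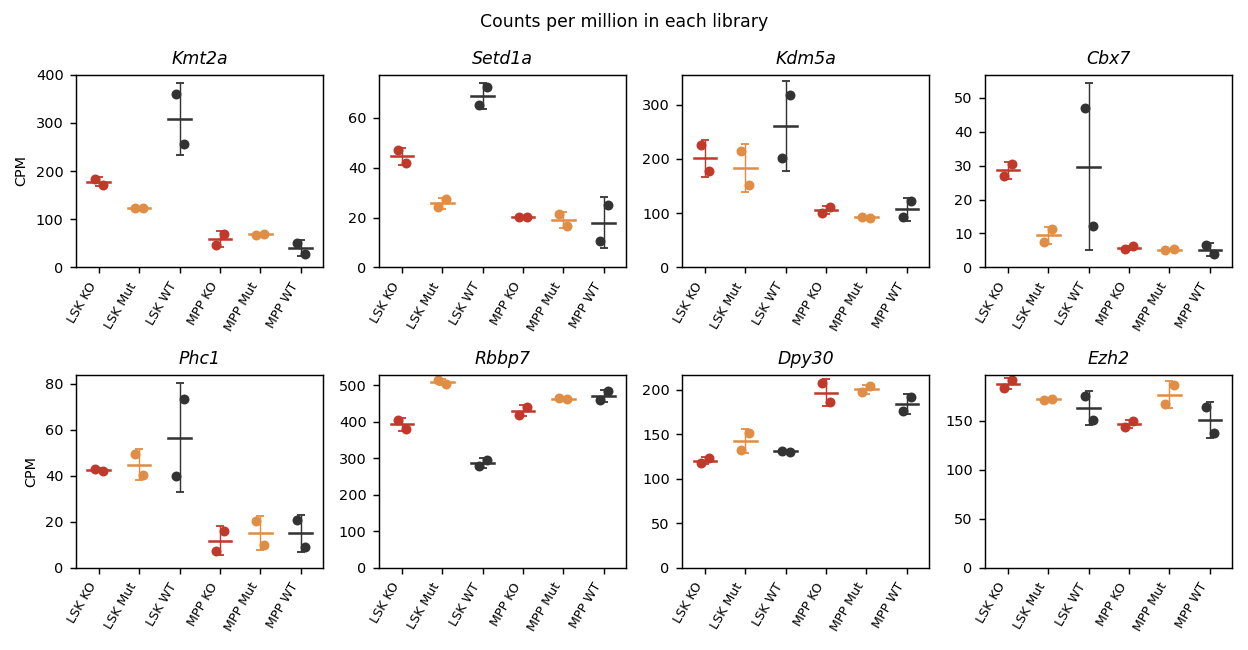
Level of 8 genes in each library, in CPM (linear axes from 0), for LSK KO, LSK Mut, LSK WT, MPP KO, MPP Mut and MPP WT. Points are the 2 libraries of a group, the horizontal bar is their mean and the whisker 1 SD. Kmt2a lies between 123 and 361 CPM in LSK and between 28.2 and 70 CPM in MPP, Dpy30 is at most 152 CPM in LSK and at least 177 CPM in MPP, and Rbbp7 is lowest in LSK WT and highest in LSK Mut.

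Promoters of 4 genes are shown because the results turn on them: both genes called in LSK Mut, and 2 called in opposite directions between LSK and MPP. RefSeq start sites of build GRCm38.p6, 250 bases before to 50 after the start, were matched for 36 of the 43 genes, with 52 promoters. The 7 genes with no entry were Cbx2, Ash2l, Kdm6b, Kmt2b, Pcgf1, Setd1b and Kdm5a. Shown 5′ to 3′ on the strand of the gene, with motif matches in capitals, are Kmt2a (chr9:44881240-44881539, minus strand), whose RNA was higher in LSK than in MPP, Rbbp7 (chrX:162760122-162760421, plus strand), higher in LSK Mut than in LSK WT, Kdm5b (chr1:134559928-134560227, plus strand), higher in LSK, and Wdr5 (chr2:27514897-27515196, plus strand), lower in LSK.
Kmt2a promoter: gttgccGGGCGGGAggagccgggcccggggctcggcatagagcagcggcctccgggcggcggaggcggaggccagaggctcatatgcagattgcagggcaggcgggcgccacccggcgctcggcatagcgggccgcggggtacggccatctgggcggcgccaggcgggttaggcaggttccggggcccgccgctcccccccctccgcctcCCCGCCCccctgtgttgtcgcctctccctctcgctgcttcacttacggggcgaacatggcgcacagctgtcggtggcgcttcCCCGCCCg
Rbbp7 promoter: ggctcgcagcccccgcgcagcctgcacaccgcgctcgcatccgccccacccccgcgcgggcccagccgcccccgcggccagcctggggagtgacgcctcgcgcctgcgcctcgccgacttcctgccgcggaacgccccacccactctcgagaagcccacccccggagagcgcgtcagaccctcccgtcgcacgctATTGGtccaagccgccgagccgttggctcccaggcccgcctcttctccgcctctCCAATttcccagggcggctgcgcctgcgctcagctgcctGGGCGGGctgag
Kdm5b promoter: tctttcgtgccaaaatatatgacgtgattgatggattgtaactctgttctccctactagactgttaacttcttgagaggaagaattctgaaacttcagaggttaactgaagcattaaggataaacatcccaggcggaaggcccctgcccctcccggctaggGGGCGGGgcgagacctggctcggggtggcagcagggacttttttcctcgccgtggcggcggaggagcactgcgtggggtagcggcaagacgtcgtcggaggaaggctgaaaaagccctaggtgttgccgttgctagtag
Wdr5 promoter: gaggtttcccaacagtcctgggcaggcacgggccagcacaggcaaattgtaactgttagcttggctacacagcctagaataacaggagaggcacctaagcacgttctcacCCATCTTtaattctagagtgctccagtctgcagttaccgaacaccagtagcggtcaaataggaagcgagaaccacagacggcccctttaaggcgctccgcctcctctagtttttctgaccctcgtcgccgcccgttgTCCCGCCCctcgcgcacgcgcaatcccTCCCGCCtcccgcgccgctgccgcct
The Kmt2a window held 36 CG pairs, that of Rbbp7 38, that of Kdm5b 17 and that of Wdr5 22, against a median of 24 over the 52 member promoters and of 7 over all 32851 promoters of the table. Searched on both strands, the SP/KLF motif GGGCGGG stood in all 4 windows, and in 51.9% of the member promoters against 25.6% of all promoters. The CCAAT box (CCAAT) stood in the Rbbp7 window of these 4 and in 38.5% of member promoters against 37.4% of all, and the YY1 motif AAGATGG in the Wdr5 window and in 7.69% against 6.34%. The E2F motif GGCGGGA, which can overlap GGGCGGG, stood in the Kmt2a and Wdr5 windows and in 21.2% of member promoters against 11.3% of all. The E2F motif TTCGCGC was found in none of the 4 windows but in 11.5% against 1.59%, the ETS motif CCGGAAG in 3.85% against 8.86%, and the NRF1 motif GCATGCG in 3.85% against 3.58%. A match describes letters and was not linked to binding, and several of these motifs are themselves rich in CG.

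LSK cells were set against MPP cells within each genotype, which asks how far the 43 genes differ between the stem cell fraction and the population labelled MPP. In WT, 15 of the 43 genes were called higher and 4 lower at an adjusted p below 0.05 (edgeR quasi-likelihood test, Benjamini-Hochberg adjustment over 14033 genes), where 10.2% and 13.7% of all genes tested were called. In KO, 11 were called higher and 1 lower, with 7.03% and 8.14% of all genes called. In Mut, 3 were called higher and 1 lower, with 3.55% and 5.21% of all genes called. A contrast of LSK with MPP averaged over the 3 genotypes, added after the data were seen, called 20 higher and 5 lower, with 18.4% and 19.4% of all genes called. The median log2 difference of the 43 genes in this averaged contrast was 0.38, against 0.03 over all genes tested. With the same sign in all 3 genotypes, 20 of the 43 were higher in LSK (46.5%) and 6 lower (14.0%), where 4213 and 3924 of all 14033 genes were. Kdm5a and Dpy30 were the members called in all 3 genotypes, 4.65% of the 43 against 5.89% of all genes, the call of Dpy30 in Mut holding in 4 of 16 alternatives, while 12 members were called in 2 or more, 27.9% against 13.2%.

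These counts moved with single libraries. The share of all genes called in each fit without a library is not given here. Without MPP WT replicate 1, 9 members were called in WT (7 higher, 2 lower), and without MPP WT replicate 2, 6 were (5 higher, 1 lower). In KO, 2 to 4 members were called without either library of LSK KO or MPP KO, and in Mut, 0 or 1 without either library of LSK Mut or MPP Mut, 2 without either library of LSK KO, and 7 without LSK WT replicate 1. The averaged contrast called 21 to 28 members whichever library was left out. Marker lists moved with the same contrast: the summed level of 9 granulocyte-monocyte progenitor markers was 2090 to 6182 CPM in LSK and 48277 to 63156 CPM in MPP, that of 10 stem and multipotent progenitor markers 2964 to 3684 CPM in LSK and 720 to 911 CPM in MPP, and 12 of 15 cell cycle genes were called lower in LSK in the averaged contrast, where 19.4% of all genes were, and 1, Top2a, higher (log2 difference 0.22, edgeR adjusted p = 0.048). Of the 10 stem and multipotent progenitor markers, Cd48 (115 to 249 CPM in LSK, 147 to 183 CPM in MPP) and Slamf1 (1.16 to 41.9 CPM, 0 to 11.1 CPM) overlapped. Cebpa, of the 9 granulocyte-monocyte progenitor markers, overlapped as well (8.84 to 21.4 CPM in LSK, 19.5 to 60.3 CPM in MPP). The part of these marker and cell cycle differences in the results on the 43 genes was not tested.

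**Figure D2:**
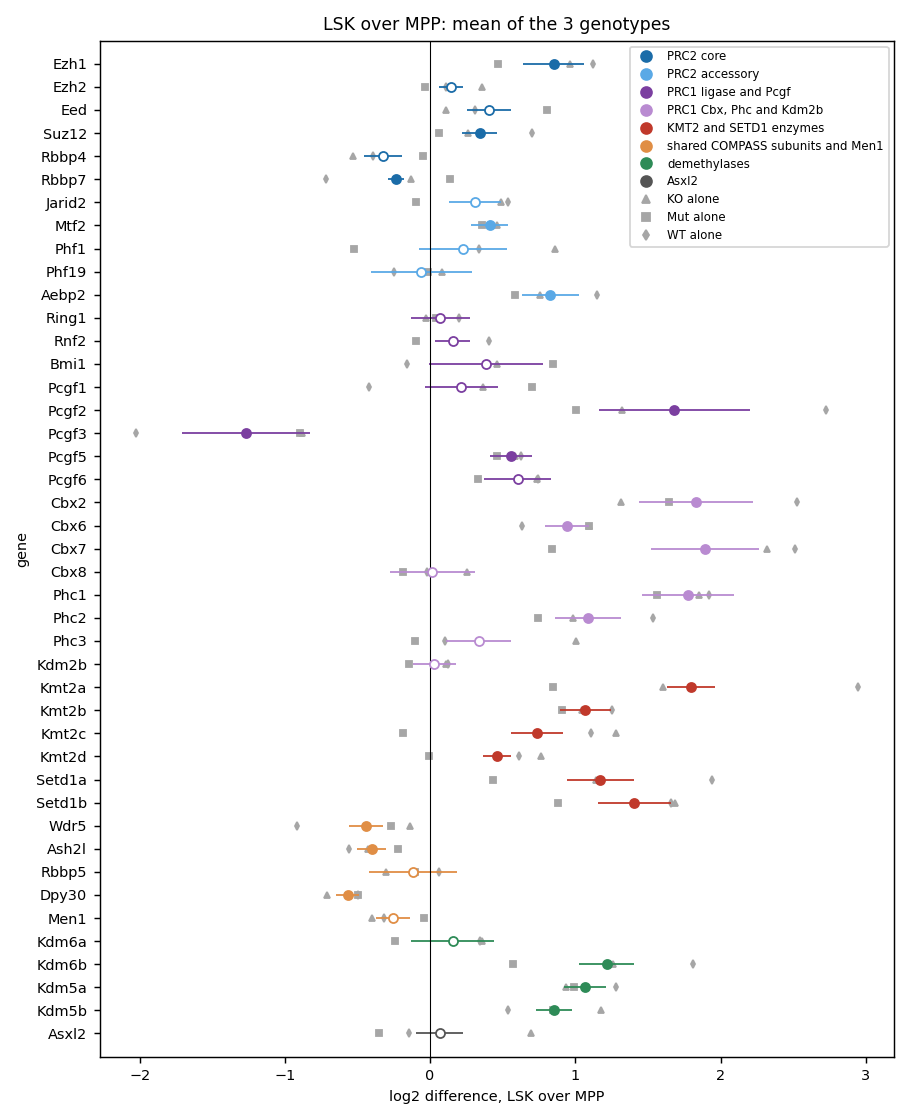
Log2 difference of LSK over MPP for each of the 43 genes, ordered and coloured by role. Circles are the contrast averaged over the 3 genotypes, filled where the adjusted p is below 0.05 (edgeR, Benjamini-Hochberg), with bars of 1 standard error, and small grey symbols are the differences within KO, Mut and WT alone. All 6 KMT2 and SETD1 enzymes lie to the right of 0 as filled circles, and the 5 shared COMPASS subunits and Men1 lie to the left, 3 of them filled. In the averaged contrast, 18.4% of all genes tested were called higher and 19.4% lower.

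All 6 H3K4 methyltransferases were called higher in LSK WT than in MPP WT and in the averaged contrast. In KO 5 of 6 were called, and in Mut none of the 6. An unadjusted edgeR p below 0.05 was reached in Mut by 2 of the 6, and by 3282 of all 14033 genes tested. Of all genes tested, 10.2% were called higher in WT, 7.03% in KO, 3.55% in Mut and 18.4% in the averaged contrast. Kmt2a, Kmt2c, Kmt2d and Setd1b have more than 12 kb of exons. Of all genes of that length, 26.5% were called higher in WT, 19.5% in KO and 6.55% in Mut. In Mut, DESeq2 called Kmt2a and Kmt2b higher, and Kmt2a was also called with no filter on low counts and without any 1 of the 4 WT libraries. In KO, the call of Kmt2b held in 7 of 16 alternatives and was lost with the replicate block (edgeR adjusted p = 0.0598). Kmt2a, which encodes the MLL1 enzyme and lies on chromosome 9 (44803355 to 44881296, minus strand, mm10), had 123 as its lowest, 178 as its median and 361 CPM as its highest value in the 6 LSK libraries, against 28.2, 59.8 and 70 CPM in the 6 MPP libraries. The LSK and MPP libraries of Kmt2a did not overlap. By genotype it stood at 185 and 172 CPM in LSK KO against 47.4 and 70 CPM in MPP KO, at 124 and 123 CPM in LSK Mut against 68.2 and 69 CPM in MPP Mut, and at 361 and 256 CPM in LSK WT against 51.4 and 28.2 CPM in MPP WT. The log2 difference was 1.6 in KO (SE 0.283, adjusted p = 0.00341), 0.85 in Mut, where it was not called, and 2.95 in WT (SE 0.298, adjusted p = 5.02e-05).

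The other 5 enzymes followed at smaller differences. Setd1b, 1 of the catalytic subunits of the SETD1 complexes that methylate most promoters, had 22.8, 26.7 and 44.8 CPM as lowest, median and highest in LSK against 8.91, 11 and 14.3 CPM in MPP, with no overlap (averaged log2 difference 1.41, SE 0.254, edgeR adjusted p = 0.0013). Its paralog Setd1a had 24.1, 44.5 and 72.5 CPM in LSK against 10.7, 20.1 and 25.1 CPM in MPP. Those ranges overlap through 1 LSK Mut library, at 24.1 CPM, and the averaged log2 difference was 1.17. The Setd1a value is uncertain, because 52.3% of its exonic bases overlap other annotated genes and the strand setting of the counting is not given in the sources used here. Kmt2b, the paralog of Kmt2a, was higher by 1.07 on the log2 scale, and the enhancer methyltransferases Kmt2c and Kmt2d by 0.73 and 0.46, all 3 called in the averaged contrast. In Mut, Kmt2c was at 99 and 93.4 CPM in LSK and at 134 and 84.3 CPM in MPP, and Kmt2d at 157 and 129 CPM in LSK and at 138 and 149 CPM in MPP, so both overlapped there.

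Of the 5 genes for the shared COMPASS subunits and Men1, 3 were called lower in LSK in the averaged contrast and none higher. The shares of all genes tested were 19.4% and 18.4%. Dpy30, on chromosome 17 (74299474 to 74323944, minus strand), had 117, 131 and 152 CPM as lowest, median and highest value in LSK against 177, 195 and 208 CPM in MPP. All 6 LSK libraries lay below all 6 MPP libraries, and Dpy30 was called lower in KO (log2 difference -0.71, SE 0.139, edgeR adjusted p = 0.00597), in Mut (-0.49, adjusted p = 0.0491) and in WT (-0.49, adjusted p = 0.0242). The call in Mut was lost with no filter (adjusted p = 0.088) and with the replicate block (adjusted p = 0.0715), at log2 differences of -0.49 and -0.50. Ash2l, which with Dpy30 raises the activity of the methyltransferase, had 105 to 148 CPM in LSK against 150 to 180 CPM in MPP, again with no overlap, and was called lower in WT and in the averaged contrast. The call of Ash2l in WT held in 8 of 16 alternatives. Wdr5 was at 168 and 164 CPM in LSK KO against 195 and 171 CPM in MPP KO, at 173 and 130 CPM in LSK Mut against 177 and 189 CPM in MPP Mut, and at 126 and 87.5 CPM in LSK WT against 179 and 223 CPM in MPP WT. It was called lower in WT (log2 difference -0.92, SE 0.206, adjusted p = 0.00816) and in the averaged contrast. Rbbp5, the remaining subunit of the core, and Men1, which tethers Kmt2a and Kmt2b, were not called, with averaged log2 differences of -0.12 and -0.25. Non-overlap of all 6 LSK with all 6 MPP libraries was found in 10 members in the higher direction, where 8.63% of all genes tested showed it, and in Ash2l and Dpy30 in the lower direction, where 11.1% did.

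Among the demethylases, 3 of 4 were called higher in LSK in the averaged contrast, where 18.4% of all genes tested were. Kdm5a, a demethylase of trimethylated H3K4, had 152, 208 and 318 CPM as lowest, median and highest in LSK against 91, 96.6 and 122 CPM in MPP, and Kdm5b had 111, 136 and 176 CPM in LSK against 49.9, 82.4 and 93.4 CPM in MPP. Neither gene overlapped between the populations. Kdm5a was called in KO (log2 difference 0.93, edgeR adjusted p = 0.0279), in Mut (0.99, adjusted p = 0.0308) and in WT (1.28, adjusted p = 0.00375), and Kdm5b in KO (1.18) and Mut (0.85) but not in WT, where LSK stood at 139 and 111 CPM against 86.1 and 86.1 CPM in MPP. The call of Kdm5b in Mut held in 8 of 16 alternatives. Kdm6b, the inducible H3K27 demethylase, had 32.3, 69.4 and 113 CPM in LSK against 22.6, 28.4 and 35.2 CPM in MPP, overlapping through the lower LSK Mut library, and was called in KO (1.26) and WT (1.81). Kdm6a, its X-linked paralog, was not called, with a log2 difference of 0.15 and an adjusted p of 0.722 in the averaged contrast.

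Of the 8 Cbx, Phc and Kdm2b genes of PRC1, 5 were called higher in LSK in the averaged contrast and none lower. The shares of all genes tested were 18.4% and 19.4%. Cbx7, the reader of methylated H3K27 known for stem cell self-renewal in blood, had 7.61, 19.6 and 47.1 CPM as lowest, median and highest in LSK against 3.8, 5.38 and 6.53 CPM in MPP. It was at 26.9 and 30.5 CPM in LSK KO, at 7.61 and 11.2 CPM in LSK Mut, and at 47.1 and 12.3 CPM in LSK WT. The 2 LSK WT libraries of Cbx7 thus lay farther apart than the LSK KO and LSK Mut libraries did. The averaged log2 difference was 1.89 (SE 0.372, edgeR adjusted p = 0.00221). Cbx2, the Cbx protein that compacts nucleosomes, had 19.6, 24.2 and 43.6 CPM in LSK against 2.6, 8.93 and 10.6 CPM in MPP, and Cbx6 had 66.4, 102 and 117 CPM in LSK against 39.6, 49 and 60.3 CPM in MPP. Neither overlapped. Phc1, a Polyhomeotic protein that joins PRC1 complexes through its SAM domain, had 39.9, 42.5 and 73.3 CPM in LSK against 7.43, 13.1 and 20.7 CPM in MPP, and Phc2 had 37.6, 53.3 and 89.4 CPM in LSK against 14.5, 26.9 and 36.2 CPM in MPP. These 5 genes were called in the averaged contrast, with log2 differences from 0.94 for Cbx6 to 1.89 for Cbx7, while Cbx8 (0.02), Phc3 (0.34) and Kdm2b (0.03), which brings PRC1 to unmethylated CG islands, were not.

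Of the 8 ligase and Pcgf genes of PRC1, 2 were called higher and 1 lower in the averaged contrast, 37.5% against 37.8% of all genes called in either direction. Ring1 (averaged log2 difference 0.07, SE 0.205) and Rnf2 (0.16, SE 0.12), the paired ubiquitin ligases, were not called, nor was Bmi1 (0.38, SE 0.394), whose 2 libraries differed by a wide margin in LSK WT, at 42.2 and 11.1 CPM, and in MPP WT, at 45.9 and 13.3 CPM. Of the Pcgf genes, whose products each define a PRC1 variant, Pcgf5 was called higher in the averaged contrast (72, 86.6 and 94.4 CPM in LSK against 42.8, 58.6 and 66.1 CPM in MPP, with no overlap) and Pcgf2 as well, at 4.11 to 9.27 CPM in LSK against 0.733 to 4.49 CPM in MPP. Pcgf3 was called lower, at 3.67 to 13.2 CPM in LSK against 6.71 to 37.2 CPM in MPP, an adjusted p of 0.0408. The call of Pcgf3 held in 7 of 16 alternatives (lost with the replicate block, edgeR adjusted p = 0.0543) and that of Pcgf2 in 10 of 16 (lost with no filter, adjusted p = 0.0501). Pcgf2, Pcgf3 and Pcgf5 were called in the averaged contrast and not within any genotype, and Pcgf2 and Pcgf3 were the least abundant Pcgf genes per length.

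Of the 6 core genes of PRC2, 2 were called higher and 1 lower in LSK in the averaged contrast. That is 50.0% of the 6, against 37.8% of all genes called in either direction. Ezh1, the methyltransferase known for quiescent cells, had 29.6, 71.8 and 120 CPM as lowest, median and highest in LSK against 28.3, 37.8 and 57.3 CPM in MPP, and was called higher in WT (log2 difference 1.12, SE 0.364, edgeR adjusted p = 0.046) and in the averaged contrast (0.85, SE 0.21, adjusted p = 0.00835). Ezh2, its paralog in dividing cells, had 151, 174 and 192 CPM in LSK against 138, 157 and 186 CPM in MPP and was not called (0.14, SE 0.0844, adjusted p = 0.21). The ratio of Ezh2 to Ezh1 per length was 3.78 and 2.82 in LSK KO, 6.43 and 2.83 in LSK Mut and 1.77 and 1.4 in LSK WT, against 5.67 and 4.34 in MPP KO, 5 and 6.23 in MPP Mut and 3.19 and 3.14 in MPP WT. Within each genotype except Mut the LSK ratios lay below the MPP ratios. Suz12, the scaffold of PRC2, was called higher in WT (0.70) and in the averaged contrast (0.34, edgeR adjusted p = 0.0485), calls that held in 5 and in 2 of 16 alternatives. The call of Ezh1 in WT held in 6 of 16. Eed was not called (averaged 0.41, adjusted p = 0.0541).

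Rbbp7, an X-linked histone chaperone shared by PRC2 and other complexes (chromosome X, 162760402 to 162779092, plus strand), was the PRC2 gene with the smallest error. It was at 406 and 381 CPM in LSK KO against 420 and 441 CPM in MPP KO, at 514 and 503 CPM in LSK Mut against 465 and 461 CPM in MPP Mut, and at 277 and 296 CPM in LSK WT against 459 and 483 CPM in MPP WT. LSK was thus below MPP in KO and WT and above it in Mut. Among the genotypes it was called in WT (log2 difference -0.72, SE 0.0955, edgeR adjusted p = 0.000335), and it was called lower in the averaged contrast as well (-0.24, adjusted p = 0.00577). Of the accessory factors, Aebp2 (averaged 0.83, SE 0.197) and Mtf2 (0.41, SE 0.125, a call that held in 10 of 16 alternatives) were called higher in LSK. Jarid2 (0.31), Phf1 (0.22) and Phf19 (-0.06) were not, and 43.8% of the exonic bases of Phf1 overlap other genes, mainly Cuta on the opposite strand. Asxl2, which activates the deubiquitinase Bap1 that reverses the mark of PRC1, showed 0.07 (adjusted p = 0.801).

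The ratios of other paired genes varied between libraries. Kdm6a to Kdm6b per length was 0.425 and 0.714 in LSK KO, 0.616 and 0.712 in LSK Mut and 0.206 and 0.424 in LSK WT, against 0.894 and 1.27 in MPP KO, 0.995 and 1.31 in MPP Mut and 0.443 and 1.16 in MPP WT, lower in LSK than in MPP within each genotype. Cbx7 to Cbx8 lay between 0.236 and 2.18 in LSK and between 0.107 and 0.365 in MPP.

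The Mut and KO genotypes were then set against WT within LSK, which asks whether either state of Tet2 goes with a change in these regulators. In LSK Mut against LSK WT, 2 of the 43 genes were called, Rbbp7 higher and Kmt2a lower, where 1.28% of all genes tested were called (0.539% higher, 0.737% lower). Rbbp7 was at 514 and 503 CPM in LSK Mut against 277 and 296 CPM in LSK WT. The groups did not overlap and the LSK KO libraries, at 406 and 381 CPM, lay between them. The log2 difference of Mut over WT was 0.81 (SE 0.115, adjusted p = 0.0313, edgeR with Benjamini-Hochberg adjustment over 13170 genes), a 1.75-fold higher level. Kmt2a was at 124 and 123 CPM in LSK Mut against 361 and 256 CPM in LSK WT, again with LSK KO between them at 185 and 172 CPM. Its log2 difference was -1.34 (SE 0.19, adjusted p = 0.0313), a 2.53-fold lower level.

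Both calls rest on narrow ground. No member was called in LSK Mut against LSK WT without either library of LSK Mut or of LSK KO (0 in each of these 4 fits), nor with the replicate block (Kmt2a -1.32, Rbbp7 0.81) or with the spread of the 2 groups alone (-1.33 and 0.81). In the 4 fits the log2 differences were -1.34 to -1.33 for Kmt2a and 0.80 to 0.83 for Rbbp7. Without LSK WT replicate 1 the count was 13 (4 higher, 9 lower) and without LSK WT replicate 2 it was 9 (2 higher, 7 lower), and Rbbp7 and Kmt2a were among the called genes in both. DESeq2 called 8 (Rbbp7 higher, 7 lower). The shares of all genes called with DESeq2 and in the fits without a library are not given here. These counts of members thus have no background beside them. Scaled to the spike-in RNAs, all genes shifted by a median of 1.09 on the log2 scale, Kmt2a stood at -0.22 and was not called, and Rbbp7 stood at 1.9 and was. The sums of the 10 stem cell markers overlapped, at 3000 to 3261 CPM in LSK Mut and 2964 to 3201 CPM in LSK WT. In other respects the 2 groups differed. The ribosomal RNA precursor Rn45s took up to 1.1% of counts in LSK Mut against 3.65% or more in LSK WT. The granulocyte-monocyte progenitor markers summed to 5985 to 6182 CPM in LSK Mut against 2090 to 2522 CPM in LSK WT. The part of these differences in the 2 calls was not tested.

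Among the genes of LSK Mut against LSK WT that were not called, several had larger differences than Rbbp7 on the log2 scale. Setd1a was at 24.1 and 27.2 CPM in LSK Mut against 65 and 72.5 CPM in LSK WT (log2 difference -1.44, edgeR adjusted p = 0.068), and Aebp2 at 34 and 43.7 CPM in LSK Mut against 119 and 74.8 CPM in LSK WT (-1.33, adjusted p = 0.092). Neither overlapped, with the larger spread of LSK WT visible in Aebp2. Kdm6b was at 52.4 and 32.3 CPM in LSK Mut against 113 and 88.3 CPM in LSK WT (-1.27, adjusted p = 0.101) and Phc2 at 37.6 and 46.7 CPM in LSK Mut against 89.4 and 84.6 CPM in LSK WT (-1.06, adjusted p = 0.103). By role, all 6 KMT2 and SETD1 enzymes were below 0, with a median of -0.84, and all 5 shared COMPASS subunits and Men1 above 0, with a median of 0.21, against 0.01 over all genes tested. Of the 6 enzymes 1 was called, and none of the 5 subunits was. Genes with more than 12 kb of exons, the class of Kmt2a, Kmt2c, Kmt2d and Setd1b, had a median of -0.39 in this comparison. Those with 2 to 4 kb, the class of Wdr5, Rbbp5 and Men1, had a median of 0.15. Spike-in scaling moved all genes by a median of 1.09. The part of length and scaling in this pattern by role was not tested. The libraries of Mut and WT did not overlap in 6 members that were higher and 14 that were lower, where 47.1% of all genes tested showed such a separation.

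In LSK KO against LSK WT no member was called by edgeR, where 0.0456% of all genes were, and DESeq2 called Rbbp7 higher and Kmt2a lower. An unadjusted edgeR p below 0.05 was reached by 4 of 43, and by 1811 of all 13170 genes tested. Kmt2a was at 185 and 172 CPM in LSK KO against 361 and 256 CPM in LSK WT (log2 difference -0.81, SE 0.188, edgeR adjusted p = 0.205), and Rbbp7 at 406 and 381 CPM in LSK KO against 277 and 296 CPM in LSK WT (0.44, SE 0.114, adjusted p = 0.236). Phc2 was at 51.3 and 55.3 CPM in LSK KO against 89.4 and 84.6 CPM in LSK WT (-0.73, adjusted p = 0.314), and Wdr5 at 168 and 164 CPM in LSK KO against 126 and 87.5 CPM in LSK WT (0.62, adjusted p = 0.32). None of these 4 genes overlapped between the groups, a state that 42.9% of all genes tested also showed with 2 libraries against 2. The granulocyte-monocyte progenitor markers summed to 4829 to 5133 CPM in LSK KO against 2090 to 2522 CPM in LSK WT. The stem cell markers summed to 3621 to 3684 CPM in LSK KO against 2964 to 3201 CPM in LSK WT. Rn45s took up to 2.51% of counts in LSK KO against 3.65% or more in LSK WT. The part of these marker and Rn45s differences was not tested. Without LSK WT replicate 1, 4 members were called (Bmi1, Rbbp5 and Wdr5 higher, Kmt2c lower) and without LSK WT replicate 2, 3 were (Rbbp4 and Rbbp7 higher, Kmt2a lower), so which genes were called turned on the WT library kept. The share of all genes called in these 2 fits is not given here. The KO and Mut contrasts share the 2 LSK WT libraries.

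LSK KO was also set directly against LSK Mut, a contrast whose log2 differences do not use the LSK WT counts, although those libraries enter its errors and p-values through the shared fit of 6 libraries. No member was called by edgeR (0.0607% of all genes were) or by DESeq2. An unadjusted edgeR p below 0.05 was found for 5 of 43, and for 558 of all 13170 genes tested. Rbbp7 was at 406 and 381 CPM in KO against 514 and 503 CPM in Mut (log2 difference -0.37, SE 0.114, adjusted p = 0.917), Kmt2a at 185 and 172 CPM in LSK KO against 124 and 123 CPM in LSK Mut (0.53, SE 0.187, adjusted p = 1.0), Setd1a at 47 and 41.9 CPM in LSK KO against 24.1 and 27.2 CPM in LSK Mut (0.79, SE 0.296) and Aebp2 at 64.4 and 66.4 CPM in LSK KO against 34 and 43.7 CPM in LSK Mut (0.75, SE 0.309). The libraries of all 4 genes were separate, as were those of 43.2% of all genes tested. Under spike-in scaling the difference of Kmt2a turned to -0.06.

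**Figure D3:**
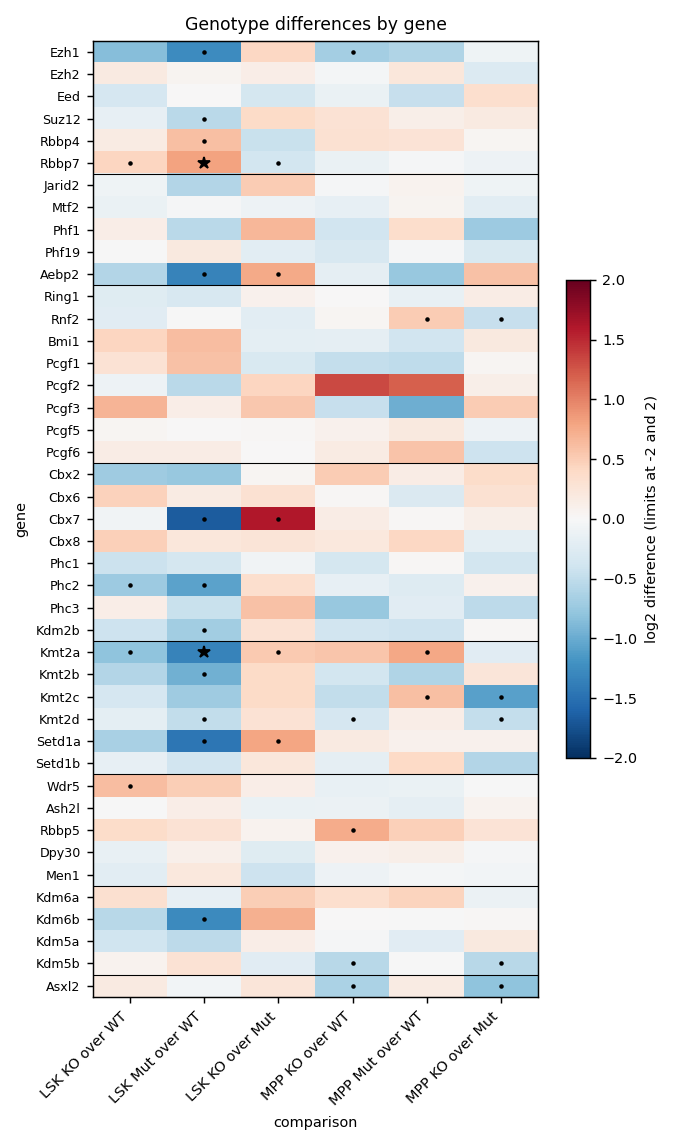
Log2 difference of the 43 genes (rows, ordered by role) in the 6 genotype comparisons (columns), red where the first genotype is higher and blue where it is lower. Stars mark an edgeR adjusted p below 0.05 and dots an unadjusted p below 0.05. The 2 stars are Rbbp7 and Kmt2a in LSK Mut over WT, and the dots are most frequent in that column. In that comparison 2518 of all 13170 genes tested had an unadjusted edgeR p below 0.05.

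Within MPP no member was called by edgeR in any of the 3 genotype comparisons, where the share of all genes called was 0.363% (KO over WT), 0.224% (Mut over WT) and 0.239% (KO over Mut). Marker sums differed between the MPP genotypes. Mast cell and basophil markers summed to 5245 to 5647 CPM in KO, 12174 to 12656 CPM in Mut and 8427 to 8996 CPM in WT. Neutrophil markers summed to 2257 to 2303 CPM in KO, 1068 to 1074 CPM in Mut and 2041 to 2136 CPM in WT. The part of these marker differences was not tested. For the libraries labelled KO against WT, 5 of 43 had an unadjusted edgeR p below 0.05, as had 1097 of all 12947 genes tested, and DESeq2 called none of the 43. Asxl2 led, at 45 and 38.8 CPM in KO against 65.9 and 64.2 CPM in WT (log2 difference -0.64, SE 0.212, adjusted p = 0.449), and Kdm5b was at 67.6 and 49.9 CPM in MPP KO against 86.1 and 86.1 CPM in MPP WT (-0.55, adjusted p = 0.537). Ezh1 was at 28.3 and 38.4 CPM in MPP KO against 57.3 and 48.8 CPM in MPP WT (-0.68, adjusted p = 0.546). Kmt2d was at 103 and 104 CPM in MPP KO against 125 and 136 CPM in MPP WT (-0.34, adjusted p = 0.565). In all 4 genes the KO libraries lay below the WT libraries, and 40.0% of all genes tested showed a separation in either direction.

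For MPP Mut against MPP WT, 3 of 43 had an unadjusted edgeR p below 0.05, as had 1262 of all 12947 genes tested, and DESeq2 called none of the 43. Rnf2 was at 106 and 81.2 CPM in Mut against 66.8 and 64.5 CPM in WT (log2 difference 0.51, edgeR adjusted p = 0.479), Kmt2c at 134 and 84.3 CPM in MPP Mut against 74.4 and 69.6 CPM in MPP WT (0.60, adjusted p = 0.485) and Kmt2a at 68.2 and 69 CPM in MPP Mut against 51.4 and 28.2 CPM in MPP WT (0.78, adjusted p = 0.492). Aebp2 was at 20.1 and 31.6 CPM in Mut against 52.1 and 35.3 CPM in WT (-0.76, adjusted p = 0.514). The libraries of these 4 genes did not overlap, as was so for 39.2% of all genes tested. Rbbp7, at 465 and 461 CPM in Mut against 459 and 483 CPM in WT, differed by less than the spread of the WT libraries. With spike-in scaling, which shifted all genes by a median of -0.58, 10 members were called lower (23.3%, against 17.6% of all genes) and the sign of Rnf2 turned (-0.07).

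For MPP KO against MPP Mut, 5 of 43 had an unadjusted edgeR p below 0.05, as had 1227 of all 12947 genes tested. DESeq2 called Kmt2c and Asxl2 lower in KO. Kmt2c was at 55.2 and 47.7 CPM in KO against 134 and 84.3 CPM in Mut (log2 difference -1.09, SE 0.249, edgeR adjusted p = 0.213), and Asxl2 at 45 and 38.8 CPM in MPP KO against 78.7 and 67.6 CPM in MPP Mut (-0.80, SE 0.211, adjusted p = 0.282). Kmt2d was at 103 and 104 CPM in MPP KO against 138 and 149 CPM in MPP Mut (-0.48, adjusted p = 0.348), and Kdm5b at 67.6 and 49.9 CPM in MPP KO against 78.8 and 93.4 CPM in MPP Mut (-0.55, adjusted p = 0.484). The KO libraries lay below the Mut libraries in all 4 genes, and 40.2% of all genes tested showed a separation. With spike-in scaling, a median shift of 0.65, 12 members were called higher (27.9%, against 25.0% of all genes) and the differences of Kmt2d (0.17) and Kdm5b (0.09) turned positive.

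Whether a genotype effect differed between the populations was tested in the fit of all 12 libraries, with the MPP effect subtracted from that of LSK. Spike-in scaling was not applied to this test. For the Mut effect, Rbbp7 (difference of log2 effects 0.85, SE 0.135, edgeR adjusted p = 0.0117) and Kmt2a (-2.1, SE 0.396, adjusted p = 0.021) were called, where 2.53% of all genes were. Kmt2a was lower in Mut than in WT in LSK, and its MPP Mut libraries lay above MPP WT without a call. Kmt2c (-1.29, adjusted p = 0.166) and Kdm6b (-1.24, adjusted p = 0.2) were not called. Without either library of MPP Mut, or without MPP WT replicate 2, no member was called, and without either library of LSK Mut, Rbbp7 alone was, while without LSK WT replicate 1 the count was 4. For the KO effect no member was called (0.727% of all genes were), with Rbbp7 at 0.59 (edgeR adjusted p = 0.0871) and Kmt2a at -1.35 (adjusted p = 0.173), while DESeq2 called both of these. An unadjusted edgeR p below 0.05 was reached by 3 of 43, and by 1734 of all 14033 genes tested. For KO against Mut no member was called by edgeR (0.0641% of all genes were) or by DESeq2. An unadjusted edgeR p below 0.05 was found for 3 of 43, and for 896 of all 14033 genes tested. Kmt2c (1.47, edgeR adjusted p = 0.522) and Kmt2d (0.77, adjusted p = 0.531) led these 3.

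The differences moved with transcript length over all genes. In the averaged contrast of LSK with MPP, the median log2 difference was -0.05 in genes with less than 2 kb of exons and 0.54 in genes with more than 12 kb, and 38.9% of the genes above 12 kb were called higher. In LSK Mut against LSK WT the medians were 0.08 and -0.39. The 9 members above 12 kb include Kmt2a (16.7 kb), Kmt2c (20.3 kb), Kmt2d (19.9 kb), Kdm5a (14.2 kb), Kdm5b (16.6 kb) and Setd1b (12.1 kb), whereas Dpy30 has 1.15 kb and Rbbp7 2.91 kb. Set against the median of its length class, the averaged difference of LSK over MPP was 1.26 for Kmt2a, 0.53 for Kdm5a, 0.31 for Kdm5b, 0.2 for Kmt2c and -0.08 for Kmt2d. Cbx7 (1.87), Cbx2 (1.80), Phc1 (1.75) and Setd1a (1.15) have exons between 4 and 8 kb, a class whose own median was 0.02, so that subtracting it could hardly move them. Dpy30 stood at -0.51 and Ash2l at -0.64. For LSK Mut over WT, Kmt2a stood at -0.95 and Rbbp7 at 0.65 against the medians of their classes. The part of length in the calls was not tested.

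**Figure D4:**
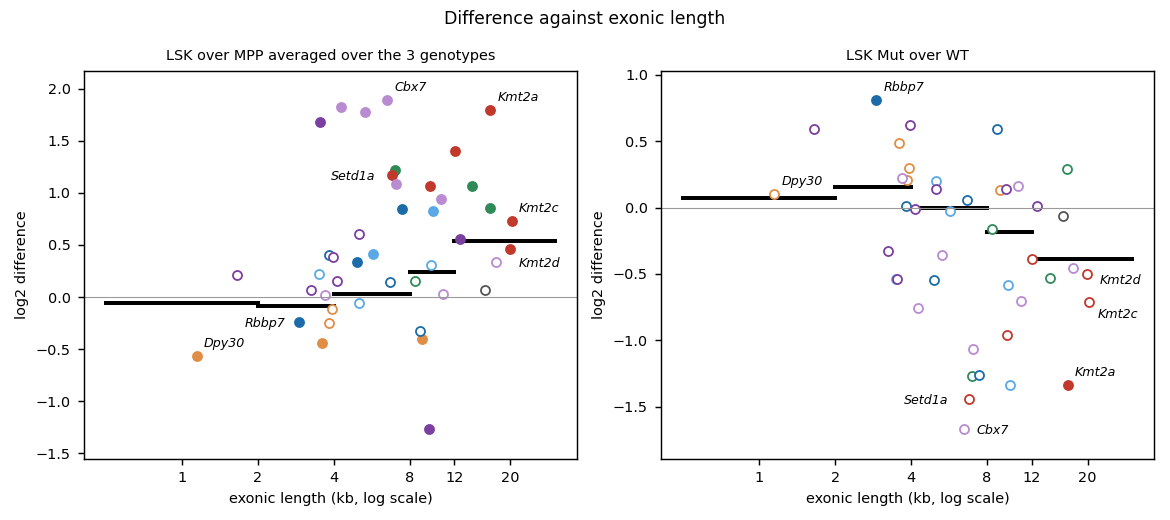
Log2 difference of the 43 genes against exonic length in kb (log axis), for LSK over MPP averaged over the 3 genotypes (left) and for LSK Mut over WT (right). Circles are coloured by role as in the plot of LSK over MPP and filled where called, and black bars are the medians of all genes tested in 5 length classes. The bars rise to 0.54 at the long end on the left and fall to -0.39 on the right, with Kmt2a outside them in both panels.

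Genes that work with the 43 were examined as lists. Of 22 other PRC1 and PRC2 partners, 9 were called higher and 1 lower in LSK in the averaged contrast, where 18.4% of all genes were called higher and 19.4% lower, the shares that stand beside each count of the averaged contrast in these lists. L3mbtl2, a subunit of a PRC1 variant, was the 1 lower, at 72.2 and 77.9 CPM in LSK KO against 128 and 132 CPM in MPP KO, and it was called in all 3 genotypes, while Usp7 (averaged log2 difference 0.88) and Mga, of the same variant as L3mbtl2, were among those higher (Mga 1.3, SE 0.256, edgeR adjusted p = 0.00223). Of a list of 10 genes that joins other COMPASS partners with H3K4 demethylases, 5 were called higher and 2 lower. The largest difference was that of the demethylase Kdm1a, which is not a COMPASS subunit, at 1.43 (SE 0.208). Of 13 other trithorax and histone methyltransferases 6 were called higher and 1 lower, and of 17 SWI/SNF genes 6 higher and 2 lower. Of 8 deubiquitinase partners, 2 were called higher, Mbd6 and Ogt, a count near the 18.4% of all genes. Of 14 immediate early genes 5 were called higher and 1 lower. Of 17 listed Polycomb and Kmt2a target genes, 12 passed the filter, and of these 12, 8 were called higher and 1 lower. The 8 include Mecom, Hoxa10 and Hoxa5, which were at most at 3.29, 2.53 and 3.8 CPM in MPP. The differences of these genes thus rest on few counts in MPP. Meis1 was at 223 and 237 CPM in LSK KO against 37.2 and 32.3 CPM in MPP KO, at 258 and 211 CPM in LSK Mut against 46.9 and 52.2 CPM in MPP Mut, and at 236 and 252 CPM in LSK WT against 31.7 and 44.2 CPM in MPP WT.

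In LSK Mut against LSK WT, 1 of these 22 partners was called, Usp7, a deubiquitinase found with PRC1, at 117 and 87.1 CPM in LSK Mut against 212 and 254 CPM in LSK WT (log2 difference -1.21, edgeR adjusted p = 0.0494), and 1 of the 17 SWI/SNF genes, Arid1a, at 154 and 156 CPM in LSK Mut against 391 and 268 CPM in LSK WT (-1.11, adjusted p = 0.0476). None of the 12 tested target genes was called there. Hoxa9 was at 82.9 and 106 CPM in LSK Mut and at 116 and 108 CPM in LSK KO, against 161 and 219 CPM in LSK WT. Meis1 was at 258 and 211 CPM in LSK Mut against 236 and 252 CPM in LSK WT, and Hoxa7 at 38.9 and 41.4 CPM in LSK Mut against 49.6 and 36.7 CPM in LSK WT, both overlapping. Cdkn2c, a cell cycle inhibitor, lay higher without a call, at 26.1 and 44.7 CPM in LSK Mut against 12 and 3.35 CPM in LSK WT. In LSK KO against LSK WT no gene of these lists was called. Cell cycle genes Aurkb and Mcm2 were called higher in LSK Mut (2 of 15 in that list), and Fosb, Klf4 and Nr4a1 lower (3 of 14 immediate early genes), beside the 2 members.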

How the data were processed

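The data are gene counts of 12 libraries, 2 technical libraries in each of 6 groups. The authors deposited whole read counts per gene symbol, 1 table per population, made per the submitters' processing notes with Trim Galore 0.4.1, TopHat2 2.0.13, HTSeq 0.6.1 and Cufflinks on mm10. The annotation and the strand setting are not given in the sources used here.

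The 92 spike-ins were left out of library sizes and tests. Genes passing filterByExpr (minimum count 10, minimum total 15) were scaled by TMM and tested with edgeR 4.0.16 (R 4.3.3) quasi-likelihood fits. LSK and MPP were fitted apart (13170 and 12947 genes, 3 residual degrees of freedom each), and contrasts of LSK with MPP in a fit of all 12 libraries (14033 genes, 6 degrees of freedom). P-values were adjusted by Benjamini-Hochberg over all genes of a fit and called below 0.05. The fits were checked on simulated data. CPM values, from the 12-library scaling, are given per library. Exonic lengths came from GENCODE M21 on GRCm38, and promoters from RefSeq.

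The 43 genes and all other lists were chosen with earlier results of these data known. In each comparison all called members were named (at most the 15 largest), filled to 4 by smallest p, and the rest described by role. The MPP column named MD-3-Lin-KO-2 was taken as MPP KO replicate 2. Alternatives were DESeq2 1.42.0, its size factors, no filter, spike-in scaling, a replicate block, other spreads and leaving out each library.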

Additional observations from a re-analysis of the deposited data

Results flagged for a closer look

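The Mut effect was called different between the populations in 2 of the 43 genes (4.65%), by the interaction test of edgeR's quasi-likelihood fit with Benjamini-Hochberg adjustment. Of all genes tested, 2.53% were called in the same test, and both calls turned on single libraries, as given above. For Kmt2a the difference of log2 effects, LSK minus MPP, was -2.10 (SE 0.396, adjusted p = 0.021), with libraries at 124 and 123 CPM in LSK Mut against 361 and 256 CPM in LSK WT, and at 68.2 and 69 CPM in MPP Mut against 51.4 and 28.2 CPM in MPP WT. For Rbbp7 it was 0.85 (SE 0.135, adjusted p = 0.0117), with 514 and 503 CPM in LSK Mut against 277 and 296 CPM in LSK WT, and 465 and 461 CPM in MPP Mut against 459 and 483 CPM in MPP WT. Spike-in scaling is not among the 16 alternatives to this test, since it was run within each population only. There it moved the median of all genes by 1.09 in LSK Mut over WT and by -0.58 in MPP Mut over WT. Kmt2a then stood at -0.22 in LSK Mut over WT, without a call. Over the 16 alternatives the value of Kmt2a ran between -2.60 and -1.74 (adjusted p 2.62e-05 to 0.0795) and that of Rbbp7 between 0.81 and 0.90 (adjusted p 7.08e-08 to 0.0595).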

How the results depend on the processing

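Counts of called members that moved by more than 1.5 times were as follows. Apart from spike-in scaling, the share of all genes called under an alternative is not given, so these counts have no background beside them. With DESeq2 they were 2 for LSK KO over WT, 8 for LSK Mut over WT, 2 for MPP KO over Mut, 8 for LSK over MPP in Mut and 2 for the KO effect of LSK minus MPP. With no filter they were 5 for LSK Mut over WT, 1 for MPP KO over Mut and 1 for the KO effect. In the fit of all 12 libraries they were 1 for LSK KO over WT and 4 for LSK Mut over WT, and with the spread of the 2 groups compared 0 for LSK Mut over WT. Spike-in scaling, with counts of 8 (LSK Mut over WT, all higher, 18.6% against 22.6% of all genes), 10 (MPP Mut over WT, all lower, 23.3% against 17.6%) and 12 (MPP KO over Mut, all higher, 27.9% against 25.0%), reversed Kmt2a in LSK KO over Mut (-0.062), Rnf2 in MPP Mut over WT (-0.073), and Kdm5b (0.092) and Kmt2d (0.17) in MPP KO over Mut; it moved the median of all genes by up to 1.09 (LSK Mut over WT) and was not applied between populations. The cause was not tested. With the replicate block, the call count of LSK Mut over WT was 0; same-numbered libraries deviated together at r between -0.025 and 0.029, so they share only a number. Leaving out 1 library gave 0 to 4 calls for LSK KO over WT, 0 to 13 for LSK Mut over WT, 6 to 19, 2 to 14 and 0 to 7 for LSK over MPP in WT, KO and Mut, 21 to 28 averaged, 0 to 2 for the KO effect, 0 to 4 for the Mut effect, and 0 for the other 5 comparisons. The median member level in LSK KO was 72.1 CPM with plain gene totals. Among 82 results on genes named by rule, DESeq2's size factors changed no call, but outside them Suz12 was lost in the averaged contrast; leaving out a library ended 128 calls, added 12 and left 700 results on their side of the threshold. In the fits with a replicate block, 3 to 316 genes per comparison, none of them among the 43, gave no usable test statistic and entered the adjustment as unchanged, as did up to 25 genes in 4 comparisons that left out a library.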
